A study of Oryctolagus cuniculus with 16 samples.

Results

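The intima and the media of the basilar artery were compared within sham-operated rabbits, so that each gene's level in the inner layer of the wall was set against its level in the muscle layer of the same animal at the same place. The comparison took 8 of the 16 libraries of the study, which are the 8 whose labels give normal flow, 4 of intima and 4 of media. All were from female New Zealand white rabbits, whose ages the labels do not state, taken 24 h after sham surgery, and every animal was perfused with heparinised saline after death. Rabbits 3 and 4 each gave the straight basilar artery (BA) and its end, the basilar terminus (BT), where the vessel divides. Thin strips of intima and the full remaining thickness of the media were cut by laser microdissection from frozen sections, and the tissue of several sections was combined for each library. The 8 libraries thus formed 4 pairs of intima and media, named here BT rabbit 3, BT rabbit 4, BA rabbit 3 and BA rabbit 4, from only 2 animals, and the 2 pairs of a rabbit are not independent animals. The other 8 libraries came from rabbits 5 and 6, in which both common carotid arteries had been tied to raise flow in the BA, and they serve below only to ask whether the difference between the layers changed with flow.

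The intima of an artery is a single sheet of endothelial cells on a basement membrane, and the media is made of vascular smooth muscle cells (VSMCs) in a matrix of collagen and elastic fibres. Endothelial cells seal the lumen with tight and adherens junctions, release nitric oxide, prostanoids and endothelin to the muscle beneath them, store von Willebrand factor and, in the brain, carry glucose and lipids across the wall. VSMCs contract through smooth muscle actin and myosin, carry the receptors for most of these signals and make the wall's collagens. A layer cut by laser can hold RNA of its neighbour, and in bulk tissue fewer cells of a type and less RNA per cell cannot be told apart.

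The depth of the intimal libraries was 6694436 to 17686105 counts on named genes, and that of the medial libraries 3978419 to 11219236. A count above 0 was found for 9353 to 10408 genes in an intimal library and for 8549 to 9237 in a medial one. Levels are given as CPM, a gene's counts scaled to a common library size, after TMM scaling for library composition, and a series of 4 values always runs in the order BT rabbit 3, BT rabbit 4, BA rabbit 3 and BA rabbit 4. Levels are compared between libraries for 1 gene, never between genes, since gene lengths were not used. A log2 difference is intima minus media from edgeR's paired fit, with its standard error (SE), and a gene is called where its q-value, the p-value after Benjamini-Hochberg adjustment over all genes tested, was below 0.05.

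Before the differences, the labels were checked against 6 defining markers. The junction protein PECAM1 stood at 185, 497, 179.6 and 436 CPM in the intima and 4.48, 135, 2.85 and 35.3 CPM in the media. CDH5, the cadherin of endothelial adherens junctions, stood at 12.5, 17.4, 16.1 and 21.0 CPM in the intima and 0, 7.79, 0.919 and 6.15 CPM in the media. All 4 intimal libraries lay above all 4 medial ones for both genes. VWF, the von Willebrand factor that tethers platelets, stood at 447, 2572, 680.5 and 2257 CPM in the intima and 26.3, 645, 31.2 and 181 CPM in the media, with BT rabbit 4 media above the intima of BT rabbit 3. Of the muscle markers, the intermediate filament gene DES stood at 157, 185, 445 and 447 CPM in the intima and 632, 1188, 521 and 1591 CPM in the media, with no overlap between the layers. Smooth muscle actin ACTA2 stood at 18493, 18740.4, 71949.6 and 32744 CPM in the intima and 93477, 68371, 79583 and 70161 CPM in the media. The smooth muscle myosin heavy chain MYH11 stood at 414, 399.7, 1714 and 649 CPM in the intima and 2048, 1448, 1388 and 1641 CPM in the media. For both contractile genes the intima of BA rabbit 3 reached the medial range, and for MYH11 it was above the media of its own pair. Of the 6 markers, VWF alone was called (log2 difference 3.56, SE 0.44, q = 0.0251). The markers were thus on the side their labels give in all pairs but that 1 MYH11 pair, while ACTA2 RNA was present in every intimal library and PECAM1 RNA in every medial one.

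**Figure D1:**
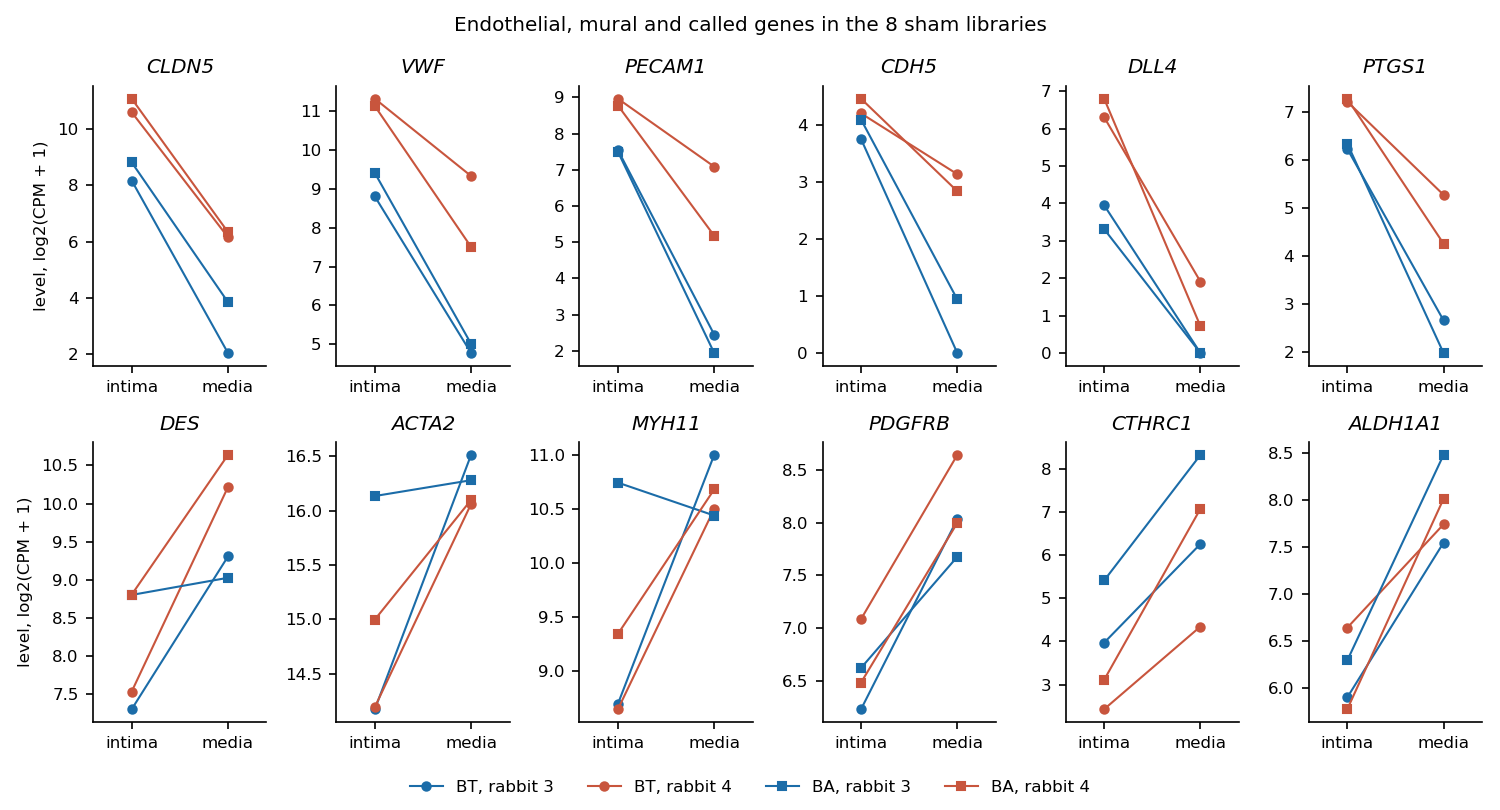
Level of 12 genes in the 8 sham libraries, as log2(CPM + 1) with a separate vertical scale for each gene, intima at the left and media at the right of each panel. Each line joins the intima and media of 1 pair (rabbit 3 blue, rabbit 4 red, BT circles, BA squares), and the lines of CLDN5, VWF, PECAM1, CDH5, DLL4 and PTGS1 fall from intima to media while those of the lower row rise, except the BA rabbit 3 line of MYH11.

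The 2 rabbits differed in ways that run through what follows. The summed level of the endothelial marker list was 1822 and 2470 CPM in the intima of rabbit 3 (BT and BA) and 7390 and 8295 CPM in that of rabbit 4, against 660 to 2143 CPM in the media. Beta-globin HBB2, the haemoglobin chain of red cells, stood at 1859, 129320.0, 4.70 and 89817 CPM in the intima and 1.68, 6635, 26.5 and 4684 CPM in the media, so that both layers of rabbit 4 held far more of it than those of rabbit 3. The red cell enzyme gene ALAS2 stood at 5.97, 391, 0 and 542 CPM in the intima and 0, 22.6, 0.368 and 45.4 CPM in the media. Of 4 blood cell markers in the table, SLC4A1 and ITGA2B were under the filter on low values. The summed contractile list was 45652 to 147493 CPM in the intima, with the highest value in BA rabbit 3, and 163577 to 204691 CPM in the media. What part blood RNA and the share of endothelium in the strips had in each result was not tested.

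Of 9161 genes tested, 46 (0.502%) were higher and 4 (0.0437%) lower in the intima, with a smallest q-value of 0.0110. At an unadjusted p below 0.05 there were 754 higher and 462 lower genes. The 46 higher genes had log2 differences of 1.61 to 6.55 with a median of 2.99, against a median of 0.14 over all genes tested, or 0.33 when library size alone was used for scaling. All 50 called genes had the same sign in 4 of 4 pairs, and in 34 of the 46 and 3 of the 4 the layers did not overlap. Over all genes tested, 15.6% were higher and 9.17% lower in the intima in 4 of 4 pairs, and 5.83% and 3.09% did not overlap in that direction. The median log2 ratio of the 46 in single pairs was 2.84 in BT rabbit 3, 2.38 in BT rabbit 4, 2.79 in BA rabbit 3 and 3.05 in BA rabbit 4. The number of calls depended on which animals entered. Without rabbit 4 no gene was called, higher or lower, by edgeR (543 genes at an unadjusted p below 0.05), and without rabbit 3 there were 197 higher and 125 lower. Each of these fits rests on the BT and BA pairs of 1 animal, so its calls do not measure spread between animals. Without 1 pair, the counts higher and lower were 10 and 0 without BT rabbit 3, 5 and 0 without BT rabbit 4, 22 and 1 without BA rabbit 3, and 0 and 0 without BA rabbit 4. DESeq2, with the same block on all 8 libraries, called 509 higher and 325 lower (5.56% and 3.55%). The log2 difference of each of the 50 genes kept its sign in every one of these fits. The fits reuse libraries in which all pairs already shared that sign, so this could hardly turn out otherwise and is no further support.

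**Figure D2:**
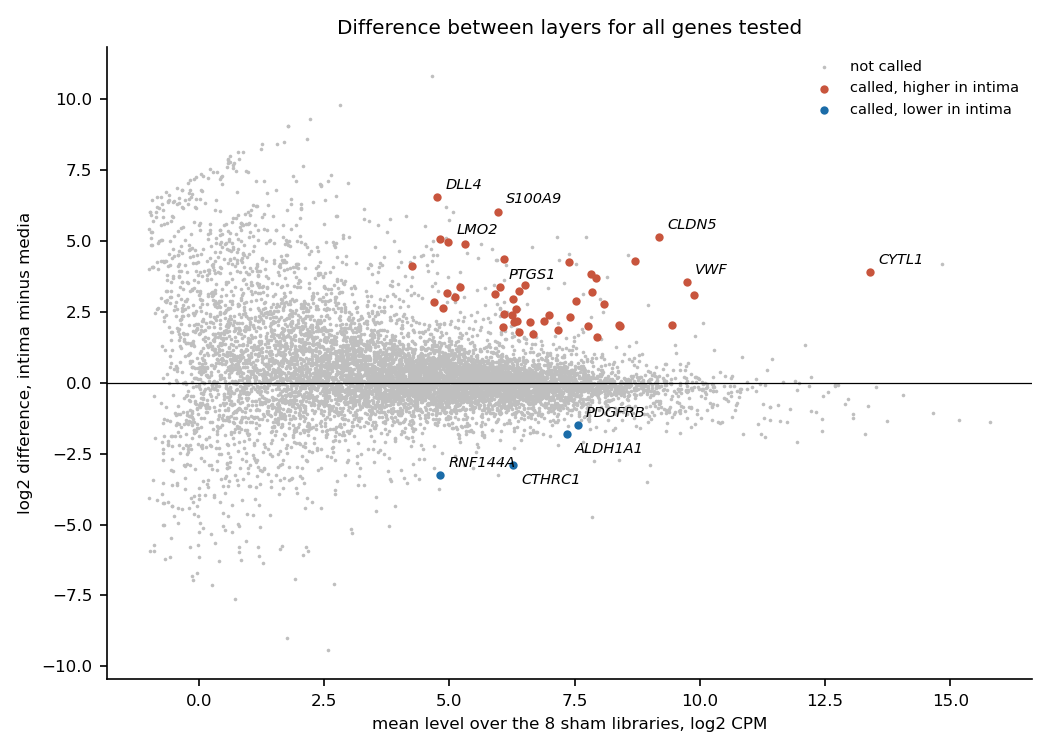
Log2 difference (intima minus media) against mean level (log2 CPM) for the 9161 genes tested in the sham rabbits, with the 46 genes called higher in the intima in red, the 4 called lower in blue and the rest in grey. The red points lie between 1.61 and 6.55 on the vertical axis, and genes of low level scatter widely without being called.

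The gene with the smallest q-value was the endothelial tight junction claudin CLDN5, at 287, 1559.7, 451 and 2181 CPM in the intima and 3.08, 70.3, 13.3 and 79.9 CPM in the media (log2 difference 5.13, SE 0.39, q = 0.0110). The lowest intimal value was above the highest medial value, and rabbit 4 was higher than rabbit 3 in both layers. The lysosomal protease cathepsin Z, CTSZ, stood at 149, 358, 228 and 565 CPM in the intima and 20.7, 60.1, 29.5 and 63.7 CPM in the media (log2 difference 2.88, SE 0.23, q = 0.0110). GCHFR, the feedback regulator of the enzyme that makes tetrahydrobiopterin, the cofactor of nitric oxide synthases, stood at 56.5, 308, 40.2 and 211 CPM in the intima and 7.27, 22.9, 4.78 and 24.3 CPM in the media (log2 difference 3.23, SE 0.28, q = 0.0115). Both genes, like CLDN5, were higher in the intima without overlap. TPD52L1, of the tumour protein D52 family, stood at 277, 473, 261 and 795 CPM in the intima and 10.1, 45.0, 34.3 and 58.1 CPM in the media (log2 difference 3.69, SE 0.35, q = 0.0161). Serglycin SRGN, the proteoglycan of secretory granules, stood at 112, 263, 60.0 and 225 CPM in the intima and 9.79, 41.9, 5.51 and 12.1 CPM in the media (log2 difference 3.45, SE 0.33, q = 0.0161). The zinc finger transcription factor gene ZNF521 stood at 87.0, 208, 74.7 and 143 CPM in the intima and 14.3, 32.5, 21.5 and 24.9 CPM in the media (log2 difference 2.40, SE 0.28, q = 0.0251). These 3 also showed no overlap, and for all 3 both libraries of rabbit 4 exceeded the matching libraries of rabbit 3 in both layers.

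Of these 10 genes with the smallest q-values among those higher, 2 act on lipid mediators. LTC4S, the synthase of leukotriene C4, stood at 17.4, 108, 19.1 and 124 CPM in the intima and 2.24, 12.02, 1.38 and 10.4 CPM in the media (log2 difference 3.38, SE 0.35, q = 0.0208). The secreted phospholipase A2 gene PLA2G2D stood at 177, 1392, 365 and 1165 CPM in the intima and 13.1, 163, 5.70 and 52.6 CPM in the media (log2 difference 4.30, SE 0.50, q = 0.0251). Both were separate between the layers, yet the spread between rabbits was wide, and the media of BT rabbit 4 nearly reached the intima of BT rabbit 3 for PLA2G2D. The remaining 2 of the 10 were TSC22D1, a leucine zipper gene first known for its response to TGF-beta, and PTPRM, a receptor phosphatase that binds itself across cell contacts. TSC22D1 stood at 162, 109, 80.2 and 195 CPM in the intima and 12.3, 20.5, 11.9 and 24.7 CPM in the media (log2 difference 2.96, SE 0.31, q = 0.0212). PTPRM stood at 50.3, 140.0, 62.5 and 203 CPM in the intima and 9.79, 23.7, 10.0 and 47.7 CPM in the media (log2 difference 2.41, SE 0.26, q = 0.0243). TSC22D1 was not ordered by rabbit in the intima, since BT rabbit 3 was above BT rabbit 4.

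The 4 genes lower in the intima included the receptor by which endothelial PDGF holds mural cells. PDGFRB stood at 74.1, 135, 97.5 and 88.5 CPM in the intima and 261, 399, 204 and 255 CPM in the media (log2 difference −1.49, SE 0.23, q = 0.0443). CTHRC1, a secreted protein with a collagen repeat, stood at 14.7, 4.39, 41.6 and 7.64 CPM in the intima and 75.5, 19.3, 319 and 134 CPM in the media (log2 difference −2.89, SE 0.39, q = 0.0305), with overlap because the media of BT rabbit 4 was low. ALDH1A1, an enzyme that makes retinoic acid from retinaldehyde, stood at 58.9, 99.0, 77.6 and 53.9 CPM in the intima and 186, 213, 356 and 257 CPM in the media (log2 difference −1.81, SE 0.28, q = 0.0435). The ubiquitin ligase gene RNF144A stood at 4.02, 4.68, 13.8 and 2.79 CPM in the intima and 56.5, 60.7, 45.1 and 37.7 CPM in the media (log2 difference −3.26, SE 0.51, q = 0.0473). PDGFRB, ALDH1A1 and RNF144A did not overlap between the layers, and the medial values of PDGFRB were within a range of 204 to 399 CPM. With the counts of both locations summed per rabbit, PDGFRB (q = 0.0953), ALDH1A1 (q = 0.0510) and RNF144A (q = 0.0953) missed the threshold. ALDH1A1 also missed it with library size alone (q = 0.0632) and with rabbit and location as separate terms (q = 0.0504), and RNF144A with those terms (q = 0.0517) and with filterByExpr (q = 0.0514).

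**Figure D3:**
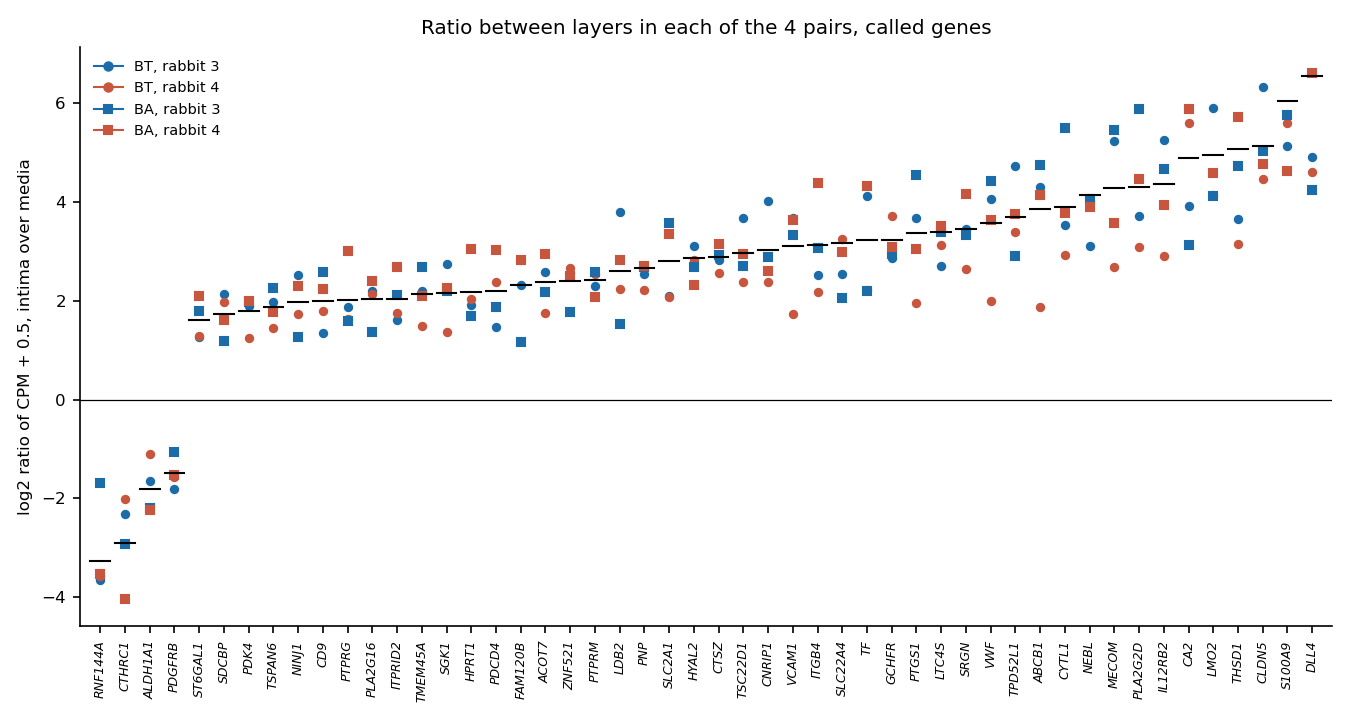
Log2 ratio of intima to media (CPM + 0.5) in each of the 4 pairs for the 50 called genes, ordered by the fitted log2 difference, which is drawn as a black bar. Every point of a gene lies on the same side of 0, with rabbit 3 in blue, rabbit 4 in red, BT as circles and BA as squares, and the BA rabbit 3 point of RNF144A stands apart from the other 3 of that gene.

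Across the 46 higher genes the rabbits differed as they did for the marker sum. In the intima, rabbit 4 was above rabbit 3 at both locations for 40 of the 46, against 28.8% of all genes tested, and in the media for 37 of the 46, against 31.3%. The median ratio of rabbit 4 to rabbit 3 over the 46 was 2.94 in the intima and 3.53 in the media. The paired fit chose genes by their ratio within pairs, so nothing is read from how even that ratio was.

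The counts of each list below are to be set beside those over all 9161 genes tested. Of these, 15.6% were higher and 9.17% lower in 4 of 4 pairs, and 1216 were at an unadjusted p below 0.05. DESeq2 called 5.56% higher and 3.55% lower. Endothelial markers were the list with the highest median. Of 20 tested members, CLDN5 and VWF were called higher (2 of 20), 17 were higher in the intima in 4 of 4 pairs and 1 was lower in 4 of 4, and the median log2 difference was 3.90 against 0.14 over all genes. At an unadjusted p below 0.05 were 17 of the 20, and DESeq2 called 15 higher and 1 lower. The receptor tyrosine kinase of the angiopoietins, TEK, stood at 79.4, 102, 85.0 and 170.4 CPM in the intima and 4.48, 11.2, 0 and 8.57 CPM in the media (log2 difference 4.73, SE 0.99, q = 0.0971). The adhesion molecule ICAM2 stood at 125, 620.2, 134 and 709.9 CPM in the intima and 2.24, 62.8, 0 and 45.0 CPM in the media (log2 difference 5.13, SE 1.04, q = 0.0929). Neither passed the threshold, although the layers did not overlap, and the medial values of 0 in 1 pair make the fitted difference uncertain. CD34 (log2 difference 2.05, SE 0.35, q = 0.0583) and RAMP2 (log2 difference 2.95, SE 0.52, q = 0.0609) lay just above the threshold, with the same sign in 4 of 4 pairs. Against the name of the list, the endothelial matrix gene MMRN2 was lower in the intima in 4 of 4 pairs (log2 difference −1.01, SE 0.27, q = 0.168) and the adhesion molecule ESAM in 3 of 4 (log2 difference −0.39, SE 0.33, q = 0.680). The other 3 markers in the table, MMRN1, PLVAP and APLNR, had 0 or 1 count in the 8 libraries together.

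Junction genes showed a smaller shift. Among 23 tested members only CLDN5 was called, 12 were higher in 4 of 4 pairs and 2 lower, and the median log2 difference was 1.05. At an unadjusted p below 0.05 were 11 of the 23, and DESeq2 called 7 higher and 1 lower. The tight junction adhesion molecule F11R stood at 47.5, 73.4, 19.5 and 98.4 CPM in the intima and 0, 1.46, 0 and 13.6 CPM in the media (log2 difference 5.73, SE 1.09, q = 0.0849). CGNL1, which links tight junctions to the cytoskeleton, had a log2 difference of 1.61 (SE 0.40, q = 0.147). Among the members lower in the intima, AMOTL2, a binding partner of YAP at junctions, was at a log2 difference of −0.96 (SE 0.29, q = 0.212). The connexins were not named by the rule for junction genes and were looked up after their values were seen. GJA4 was at 14.4, 4.24, 3.51 and 9.99 CPM in the intima and 0, 0.325, 0.276 and 0.162 CPM in the media. GJA5 was at 6.04, 15.4, 12.7 and 48.0 CPM in the intima and 1.12, 5.03, 3.40 and 7.28 CPM in the media. Both were higher in the intima in 4 of 4 pairs without passing the threshold. GJA1 had a mixed sign (log2 difference 0.22, SE 2.65, q = 0.986). On the other side, GJC1 was at 4.83, 12.9, 12.3 and 7.05 CPM in the intima and 23.8, 11.9, 31.2 and 11.6 CPM in the media. It was lower in the intima in 3 of 4 pairs (log2 difference −1.06, SE 0.58, q = 0.485).

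The nitric oxide and cGMP genes had no call in either direction, with 8 of the tested members above 0 and 11 below. Among 19 tested members edgeR called none (4 at an unadjusted p below 0.05, and DESeq2 called 3 higher and 0 lower), and the median was −0.29, or −0.10 with library size alone. Over all 9161 genes tested, 1216 were at such a p, and DESeq2 called 5.56% higher and 3.55% lower. The endothelial synthase NOS3 stood at 96.0, 378, 127 and 454 CPM in the intima and 0, 88.3, 10.8 and 12.1 CPM in the media (log2 difference 4.34, SE 0.91, q = 0.0986). GCH1, the first enzyme of tetrahydrobiopterin synthesis and the partner of GCHFR, stood at 24.9, 76.5, 28.0 and 97.1 CPM in the intima and 3.08, 15.8, 0 and 0 CPM in the media (log2 difference 5.12, SE 1.49, q = 0.199). The natriuretic peptide receptor NPR1 stood at 42.4, 97.6, 47.3 and 242 CPM in the intima and 0.280, 38.0, 0.276 and 19.4 CPM in the media (log2 difference 4.34, SE 1.02, q = 0.133). All 3 were higher in the intima in 4 of 4 pairs without overlap, each with a medial library at or near 0. With the opposite sign, the cGMP phosphodiesterase PDE5A was at a log2 difference of −1.13 (SE 0.43, q = 0.306) and the cGMP kinase PRKG1 at a log2 difference of −0.80 (SE 0.35, q = 0.385), with 3 and 4 of 4 pairs lower.

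Among the endothelin and prostanoid genes 1 of 13 was called, the constitutive cyclooxygenase PTGS1, which makes the precursor of prostacyclin and thromboxane. It stood at 74.1, 147, 80.0 and 154 CPM in the intima and 5.31, 37.7, 2.94 and 18.1 CPM in the media (log2 difference 3.38, SE 0.49, q = 0.0358). The inducible cyclooxygenase PTGS2 stood at 369, 974, 229.5 and 417 CPM in the intima and 29.9, 204, 22.9 and 6.15 CPM in the media (log2 difference 3.73, SE 0.60, q = 0.0558). The vasoconstrictor peptide gene EDN1 stood at 117, 363, 276 and 304 CPM in the intima and 1.68, 66.7, 1.38 and 11.3 CPM in the media (log2 difference 5.14, SE 0.87, q = 0.0583). PTGS2 and EDN1 did not overlap between the layers but missed the threshold. The endothelin receptor EDNRA was on the other side, at 104, 178, 138 and 86.8 CPM in the intima and 315, 336, 259 and 238 CPM in the media (log2 difference −1.22, SE 0.23, q = 0.0851), as was the prostaglandin E2 receptor PTGER4, at 3.15, 9.51, 5.04 and 3.82 CPM in the intima and 19.6, 23.7, 16.0 and 24.7 CPM in the media (log2 difference −2.07, SE 0.55, q = 0.170). Neither receptor was called, although both were lower in the intima in 4 of 4 pairs without overlap. The median of the list was 1.85, with 5 members higher and 3 lower in 4 of 4 pairs. Of the 13, 8 were at an unadjusted p below 0.05, and DESeq2 called 4 higher and 3 lower.

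For the vasoactive receptors, edgeR called none of 16 (4 at an unadjusted p below 0.05, and DESeq2 called 3 higher and 0 lower), with a median of −0.94. RAMP2 and CALCRL, which together form the receptor for adrenomedullin, were at a log2 difference of 2.95 (SE 0.52, q = 0.0609) and at a log2 difference of 1.54 (SE 0.39, q = 0.157), higher in 4 of 4 pairs. The substance P receptor TACR1 stood at 0.536, 10.4, 1.98 and 19.2 CPM in the intima and 0, 0.650, 0 and 0 CPM in the media (log2 difference 6.18, SE 1.62, q = 0.168). Its layers overlapped, and the medial values at or near 0 make its fitted difference uncertain. On the other side the adenosine receptor ADORA2A was at a log2 difference of −1.25 (SE 0.45, q = 0.281), lower in 4 of 4 pairs.

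Ligands and receptors that couple the layers lay on both sides. Of 40 tested members 1 was called higher, DLL4, and 1 lower, PDGFRB, with 15 higher and 8 lower in 4 of 4 pairs and a median of −0.06, which became 0.12 with library size alone. At an unadjusted p below 0.05 were 17 of the 40, and DESeq2 called 10 higher and 4 lower. DLL4, the Notch ligand of arterial endothelium, stood at 14.5, 78.3, 8.94 and 111 CPM in the intima and 0, 2.76, 0 and 0.647 CPM in the media (log2 difference 6.55, SE 0.80, q = 0.0251). The medial counts were 0 in both pairs of rabbit 3, so the fitted difference depends on how the fit treats them. NOTCH4, the endothelial Notch receptor, stood at 5.16, 10.7, 0.453 and 14.4 CPM in the intima and 0, 0.162, 0 and 0 CPM in the media (log2 difference 7.12, SE 1.49, q = 0.0971), and the Notch target HEY1 at 5.90, 9.51, 11.1 and 18.1 CPM in the intima and 2.80, 0, 0.643 and 1.13 CPM in the media (log2 difference 3.90, SE 1.28, q = 0.249). In contrast the mural receptor NOTCH3 was at 82.3, 403, 177 and 364 CPM in the intima and 248, 810.3, 185 and 472 CPM in the media (log2 difference −0.75, SE 0.30, q = 0.320) and the ligand JAG1 at 142, 484, 279.5 and 339 CPM in the intima and 436, 619.8, 344 and 391 CPM in the media (log2 difference −0.61, SE 0.29, q = 0.424), both lower in the intima in 4 of 4 pairs. Of the Notch genes, DLL4 alone passed the threshold.

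For PDGF signalling, the ligand gene PDGFB was low in both layers, at 0.738, 1.46, 0.170 and 2.42 CPM in the intima and 0, 0.162, 0 and 0.162 CPM in the media (log2 difference 3.79, SE 1.97, q = 0.469), opposite in sign to its receptor PDGFRB. VEGFC, a ligand of the VEGF receptors, stood at 14.8, 34.1, 21.6 and 50.5 CPM in the intima and 0, 14.0, 3.40 and 3.23 CPM in the media (log2 difference 3.28, SE 0.91, q = 0.188). The co-receptor NRP1 stood at 12.6, 63.1, 27.5 and 19.8 CPM in the intima and 66.0, 115, 96.1 and 62.6 CPM in the media (log2 difference −1.68, SE 0.33, q = 0.0853) and the growth factor TGFB3 at 189.8, 255, 606 and 438 CPM in the intima and 737, 1294, 630.2 and 1023 CPM in the media (log2 difference −1.41, SE 0.39, q = 0.186), both lower in the intima in 4 of 4 pairs. The TGF-beta co-receptor of endothelium, ENG, stood at 5.36, 31.7, 15.7 and 50.1 CPM in the intima and 0.280, 8.44, 1.93 and 3.56 CPM in the media (log2 difference 3.12, SE 0.61, q = 0.0853). None of these 5 genes passed.

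The wall's carriers and barrier pumps gave 2 calls among 19 tested members. The glucose transporter SLC2A1 stood at 136, 833, 98.3 and 794 CPM in the intima and 31.3, 198, 7.81 and 77.3 CPM in the media (log2 difference 2.80, SE 0.35, q = 0.0251), and the efflux pump ABCB1 at 180.1, 697, 129.6 and 578 CPM in the intima and 8.67, 189, 4.32 and 32.3 CPM in the media (log2 difference 3.85, SE 0.53, q = 0.0318). Both were higher in the intima in every pair, and in both the media of BT rabbit 4 exceeded the intima of rabbit 3, so the layers overlapped across animals but not within them. The median of the list was 1.85, and 9 members were higher and 3 lower in 4 of 4 pairs. Of the 19, 10 were at an unadjusted p below 0.05, and DESeq2 called 6 higher and 2 lower. The prostaglandin transporter SLCO2A1 was at 16.1, 72.9, 18.8 and 59.7 CPM in the intima and 0, 13.2, 0.184 and 8.41 CPM in the media (log2 difference 4.14, SE 0.93, q = 0.116), and TFRC, the transferrin receptor, was at a log2 difference of −0.64 (SE 0.21, q = 0.258), lower in 4 of 4 pairs. The gene of transferrin itself, TF, was called higher and is named after its value was seen, at 240.1, 564, 150.2 and 697 CPM in the intima and 13.4, 120.5, 32.3 and 34.4 CPM in the media (log2 difference 3.22, SE 0.47, q = 0.0358).

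Haemostasis and leukocyte adhesion gave 3 calls among 18 tested members, all higher in the intima. Besides VWF, the adhesion molecule VCAM1 stood at 642, 2758, 499 and 2479.7 CPM in the intima and 50.1, 827, 49.0 and 200.4 CPM in the media (log2 difference 3.12, SE 0.38, q = 0.0251), with the media of BT rabbit 4 above both intimal values of rabbit 3. The tetraspanin CD9 stood at 387, 753, 292 and 728 CPM in the intima and 152, 218, 48.3 and 153 CPM in the media (log2 difference 1.99, SE 0.27, q = 0.0305), without overlap. The tissue plasminogen activator PLAT was at a log2 difference of 1.29 (SE 0.32, q = 0.147), while TFPI, the inhibitor of the tissue factor pathway, was at a log2 difference of −0.91 (SE 0.22, q = 0.147) and lower in 4 of 4 pairs. The list's median was 0.45. Of the 18, 7 were at an unadjusted p below 0.05, and DESeq2 called 5 higher and 1 lower.

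Flow-responsive endothelial genes had a median of 1.12, with 8 of 13 tested members higher in the intima in 4 of 4 pairs and PTGS1 the only call. At an unadjusted p below 0.05 were 8 of the 13, and DESeq2 called 6 higher and 0 lower. TXNIP, an inhibitor of thioredoxin, stood at 587, 317, 353 and 553 CPM in the intima and 33.0, 113, 73.2 and 115 CPM in the media (log2 difference 2.51, SE 0.43, q = 0.0609), and ASS1, which remakes arginine for nitric oxide synthesis, at 31.4, 141, 11.6 and 115 CPM in the intima and 0, 23.4, 0 and 1.78 CPM in the media (log2 difference 5.48, SE 1.02, q = 0.0762). The cytochrome P450 gene CYP1B1 ran the other way at a log2 difference of −2.88 (SE 1.02, q = 0.280). The transcription factor list had a median of −0.34 and 1 call of 28, the zinc finger gene MECOM, at 112, 495, 131 and 480.0 CPM in the intima and 2.52, 76.8, 2.48 and 39.6 CPM in the media (log2 difference 4.28, SE 0.58, q = 0.0305), without overlap. The endothelial factor GATA2 was at a log2 difference of 3.35 (SE 0.57, q = 0.0596) and the ETS factor FLI1 at a log2 difference of 1.76 (SE 0.36, q = 0.0929), both higher in 4 of 4 pairs. NR2F2, a nuclear receptor best known in veins, was lower in the intima at 199, 332, 303 and 166 CPM in the intima and 507, 725, 537 and 544 CPM in the media (log2 difference −1.25, SE 0.23, q = 0.0754), as was the homeobox gene MEOX1 (log2 difference −3.46, SE 0.97, q = 0.191). Of these factors, MECOM alone passed the threshold. Of the 28, 10 were at an unadjusted p below 0.05, and DESeq2 called 4 higher and 5 lower.

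**Figure D4:**
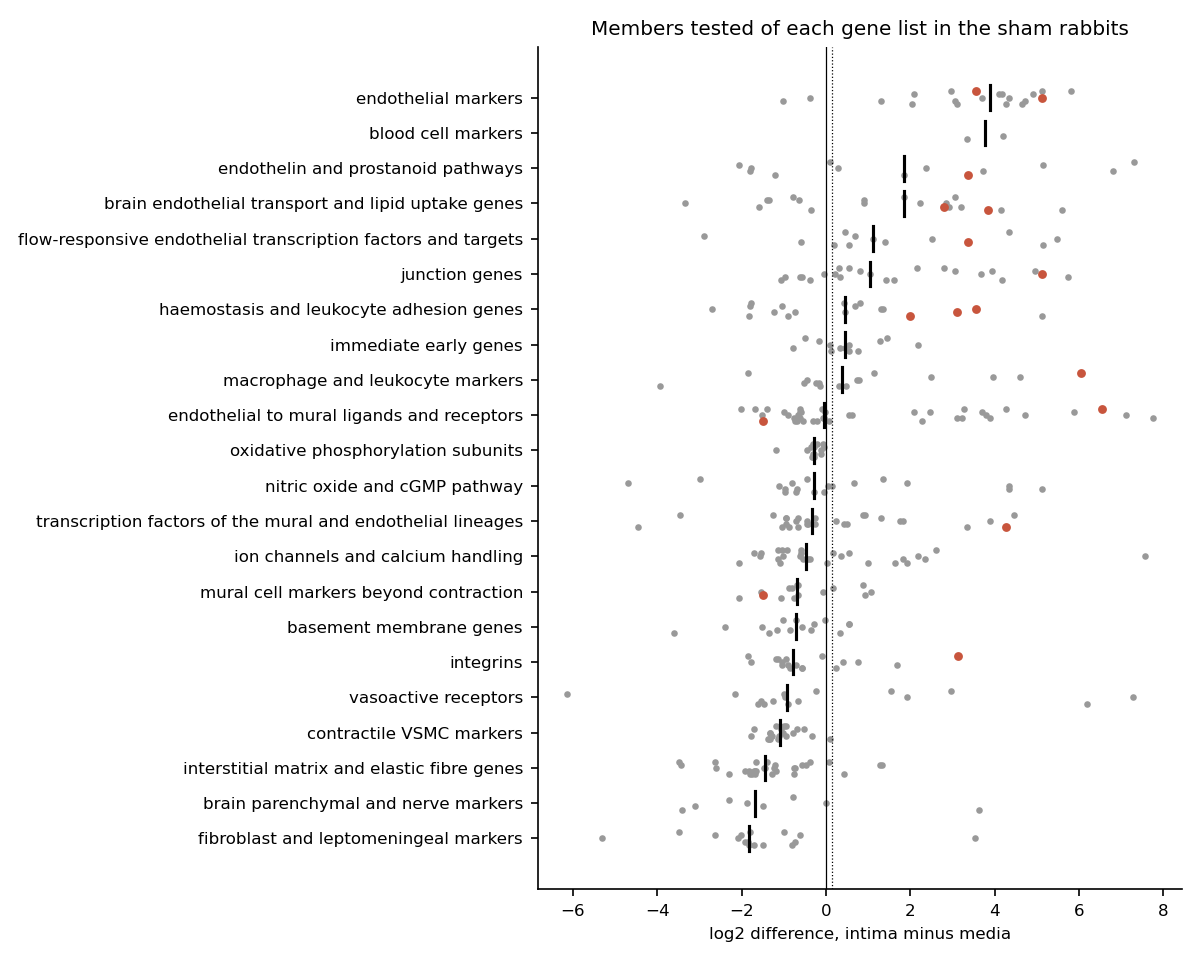
Log2 difference (intima minus media) of each tested member of the 22 gene lists in the sham rabbits, 1 point per gene, with called genes in red and the rest in grey. A black bar marks each list's median, from 3.90 for endothelial markers down to −1.82 for fibroblast and leptomeningeal markers, and the dotted line marks the median of all 9161 genes tested, 0.14.

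The contractile apparatus lay on the medial side, without a gene past the threshold. Of 22 tested members edgeR called none (16 at an unadjusted p below 0.05, and DESeq2 called 0 higher and 13 lower), 21 had a log2 difference below 0, 11 were lower in the intima in 4 of 4 pairs, and the median was −1.09. Enteric smooth muscle actin ACTG2, also made in arteries, stood at 2879, 2461, 9503 and 5259.8 CPM in the intima and 17821, 11759.8, 14399 and 16325 CPM in the media (log2 difference −1.79, SE 0.39, q = 0.106). The myosin light chain kinase MYLK stood at 828, 1995, 2638 and 1862 CPM in the intima and 4423, 6256, 3166 and 3718 CPM in the media (log2 difference −1.33, SE 0.37, q = 0.191), and tropomyosin TPM1 at 4439, 6242, 13075 and 8642 CPM in the intima and 19229.5, 24364, 14754 and 19028 CPM in the media (log2 difference −1.36, SE 0.39, q = 0.196). All 3 were lower in the intima without overlap, and the intimal value of BA rabbit 3 was the highest of the intimal values for each. Without rabbit 3, which leaves the BT and BA pairs of 1 animal, 10 of the 22 were called lower, beside 125 of all 9083 genes tested. Without rabbit 4 no gene was called.

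Mural markers beyond contraction gave 1 call of 15, PDGFRB, with 6 lower and none higher in 4 of 4 pairs and a median of −0.68. At an unadjusted p below 0.05 were 5 of the 15, and DESeq2 called 0 higher and 3 lower. ABCC9, the sulphonylurea receptor of vascular KATP channels, stood at 9.19, 11.3, 23.0 and 13.1 CPM in the intima and 36.9, 81.7, 76.7 and 43.2 CPM in the media (log2 difference −2.07, SE 0.35, q = 0.0583), and its channel partner KCNJ8 at 9.66, 14.3, 26.8 and 20.1 CPM in the intima and 64.6, 80.9, 22.5 and 43.3 CPM in the media (log2 difference −1.54, SE 0.56, q = 0.288). ABCC9 did not overlap between the layers but missed the threshold. RGS5, a regulator of G protein signalling and a usual mural marker, had no common sign, at 77.3, 61.9, 366 and 73.9 CPM in the intima and 153, 96.0, 119 and 44.6 CPM in the media (log2 difference 0.18, SE 0.46, q = 0.915).

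The ion channel and calcium list had no call by edgeR among 28 tested members (11 at an unadjusted p below 0.05, and DESeq2 called 2 higher and 5 lower), with a median of −0.48. The inositol trisphosphate receptors were split: ITPR2 stood at 77.8, 37.2, 25.2 and 27.0 CPM in the intima and 12.9, 8.44, 6.16 and 14.6 CPM in the media (log2 difference 1.92, SE 0.43, q = 0.113) and ITPR1 at 74.7, 166, 169 and 155 CPM in the intima and 304, 357, 261 and 279 CPM in the media (log2 difference −1.15, SE 0.28, q = 0.151), each without overlap and in opposite directions. KCNMB1, the muscle subunit of BK channels, stood at 148, 257, 303 and 254 CPM in the intima and 454, 607, 350.2 and 608 CPM in the media (log2 difference −1.09, SE 0.28, q = 0.162). The calcium pump ATP2A3 (log2 difference 2.19, SE 0.77, q = 0.280) and the store channel ORAI1 (log2 difference 2.62, SE 0.86, q = 0.251) were on the intimal side in 4 of 4 pairs, and the calcium channel subunit CACNB2 (log2 difference −1.02, SE 0.28, q = 0.189) on the medial side in 4 of 4. None of these 6 passed.

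Matrix genes were mostly lower in the intima. Of 31 tested interstitial matrix and elastic fibre genes edgeR called none (16 at an unadjusted p below 0.05, and DESeq2 called 0 higher and 14 lower), 15 were lower and 1 higher in 4 of 4 pairs, and the median was −1.45. Biglycan BGN, a small proteoglycan, stood at 22.8, 46.1, 23.4 and 48.0 CPM in the intima and 78.0, 226, 59.2 and 122 CPM in the media (log2 difference −1.69, SE 0.28, q = 0.0575), and the fibrillar collagen COL3A1 at 1483, 2627, 3944 and 2689 CPM in the intima and 8044, 10646, 6686 and 8104 CPM in the media (log2 difference −1.71, SE 0.33, q = 0.0853). COL1A2 stood at 1428, 799.5, 1654 and 606 CPM in the intima and 2991, 3812, 3655 and 4057 CPM in the media (log2 difference −1.80, SE 0.35, q = 0.0853). The layers did not overlap for these 3. The keratan sulphate proteoglycan lumican, LUM, stood at 50.2, 96.6, 353 and 8.89 CPM in the intima and 719, 442, 1668 and 603 CPM in the media (log2 difference −3.49, SE 0.68, q = 0.0853), with the intima of BA rabbit 3 far above the other intimal values. The member higher in 4 of 4 pairs was COL14A1, at 126, 333, 142 and 217 CPM in the intima and 106, 85.9, 133 and 30.1 CPM in the media (log2 difference 1.27, SE 0.50, q = 0.326).

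Basement membrane genes also had no call among 15 by edgeR (3 at an unadjusted p below 0.05, and DESeq2 called 0 higher and 2 lower), with 7 lower and none higher in 4 of 4 pairs and a median of −0.72. COL4A1, the main collagen of the membrane, stood at 58.7, 50.6, 136 and 129.9 CPM in the intima and 188, 189, 191 and 193 CPM in the media (log2 difference −1.16, SE 0.32, q = 0.188), and COL15A1 at 56.5, 41.5, 135 and 75.1 CPM in the intima and 205, 197, 138 and 181 CPM in the media (log2 difference −1.36, SE 0.39, q = 0.194), both without overlap. Of 18 tested integrins 1 was called, and it was higher in the intima. ITGB4, the beta subunit of the laminin receptor of hemidesmosomes, stood at 40.6, 153, 24.5 and 212 CPM in the intima and 6.71, 33.8, 2.48 and 9.70 CPM in the media (log2 difference 3.12, SE 0.44, q = 0.0329). The list's median was −0.78, with 5 members lower in 4 of 4 pairs, among them ITGA8, the alpha subunit of a receptor typical of smooth muscle, at 47.5, 154, 166 and 115 CPM in the intima and 276, 429.6, 172 and 187 CPM in the media (log2 difference −1.18, SE 0.41, q = 0.271), and ITGA11 (log2 difference −1.79, SE 0.53, q = 0.208). The alpha subunit that pairs with ITGB4, ITGA6, had no common sign (log2 difference −1.05, SE 1.75, q = 0.850). Of the 18 integrins, 5 were at an unadjusted p below 0.05, and DESeq2 called 1 higher and 3 lower.

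Markers of the other cells that such strips could hold were also measured. The fibroblast and leptomeningeal list had a median of −1.82, the lowest of the 22 lists, with no call among 16 by edgeR (7 at an unadjusted p below 0.05, and DESeq2 called 1 higher and 6 lower), and its summed level was 6661 to 23646 CPM in the intima and 23384 to 40877 CPM in the media. The intima of BT rabbit 3 stood apart from the other intimal libraries for several members. The sulphate transporter SLC13A4 was at 496, 6.88, 42.5 and 0 CPM in the intima and 0.559, 76.6, 21.1 and 20.5 CPM in the media, and IGFBP2, which binds insulin-like growth factors, at 1387, 15.8, 171 and 15.6 CPM in the intima and 11.7, 311, 42.0 and 333 CPM in the media. Both had 2 pairs on each side of 0. ALDH1A2, a retinoic acid synthase of the meninges, was at 242, 24.9, 59.1 and 0.0735 CPM in the intima and 37.2, 177, 102 and 69.5 CPM in the media, with the intima above the media in BT rabbit 3 alone. The 1 member higher in the intima in 4 of 4 pairs was osteomodulin OMD, a small leucine-rich proteoglycan, at 237, 247, 265 and 314 CPM in the intima and 4.48, 130.1, 29.5 and 15.5 CPM in the media (log2 difference 3.53, SE 0.76, q = 0.106). The macrophage and leukocyte list had a summed level of 314 to 1483 CPM in the intima and 115 to 512 CPM in the media, and 1 call of 16. S100A9, the calcium-binding protein of neutrophils and monocytes, stood at 16.9, 133, 26.4 and 309.6 CPM in the intima and 0, 2.27, 0 and 12.1 CPM in the media (log2 difference 6.04, SE 0.74, q = 0.0251), and its partner S100A8 at 11.8, 17.3, 1.59 and 143 CPM in the intima and 0, 9.58, 0 and 5.98 CPM in the media (log2 difference 3.96, SE 1.07, q = 0.179). S100A9 did not overlap between the layers, and its intimal values were highest in the 2 libraries of rabbit 4, which also held the most HBB2. The monocyte receptor CD14 was at 56.5, 58.8, 56.2 and 69.0 CPM in the intima and 2.52, 16.7, 8.45 and 27.5 CPM in the media (log2 difference 2.49, SE 0.55, q = 0.109). The tissue macrophage markers C1QA (log2 difference −0.24, SE 1.91, q = 0.978), MRC1 (log2 difference −0.17, SE 1.49, q = 0.981) and CD163 (log2 difference 1.14, SE 2.80, q = 0.908) had no common sign. C1QC (log2 difference 0.74, SE 1.23), TYROBP (0.47, SE 1.13) and AIF1 (0.30, SE 1.74) were higher in 3 of 4 pairs, and C1QA was lower in 3 of 4. C1QA, C1QC and AIF1 had their highest values, 121, 203 and 334 CPM, in the intima of BT rabbit 3. In the media of that pair they were at 1.96, 10.3 and 34.4 CPM. Of the 16 members tested, 9 were above 0 and 7 below. At an unadjusted p below 0.05 were 3 of the 16, and DESeq2 called 3 higher and 0 lower. Brain parenchymal and nerve markers summed to 1.62 to 28.6 CPM in the intima and 15.6 to 41.9 CPM in the media, with no call among 8 by edgeR or DESeq2 and none at an unadjusted p below 0.05, and AQP4 and MOG were at 0. The part of these cells in the results was not tested.

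Immediate early genes, which rise within minutes of a stimulus or of tissue handling, had a median of 0.44, with no call among 13 by edgeR (2 at an unadjusted p below 0.05, and DESeq2 called 2 higher and 0 lower). FOS stood at 872, 833, 636 and 131 CPM in the intima and 419, 198, 267 and 50.3 CPM in the media (log2 difference 1.44, SE 0.24, q = 0.0596) and the mRNA-decay factor ZFP36 at 14.5, 11.3, 26.0 and 14.6 CPM in the intima and 2.52, 1.95, 4.78 and 6.31 CPM in the media (log2 difference 2.17, SE 0.61, q = 0.190), each higher in the intima in 4 of 4 pairs. Oxidative phosphorylation subunits showed a small shift to the media. Of 15 tested, 8 (53.3%) were lower in the intima in 4 of 4 pairs, against 9.17% of all genes tested, and 0 were higher. The layers did not overlap for 4 of the 15, all lower in the intima, against 3.09% of all genes. EdgeR called none of 15 (1 at an unadjusted p below 0.05, and DESeq2 called 0 higher and 1 lower), the median was −0.28, and all 15 were below 0, although with library size alone 4 of the 15 were above 0 and the median was −0.09. The muscle form of a cytochrome c oxidase subunit, COX7A1, differed most, at 26.5, 22.4, 47.7 and 27.8 CPM in the intima and 82.5, 57.3, 49.4 and 89.0 CPM in the media (log2 difference −1.19, SE 0.36, q = 0.215).

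Among the called genes outside these lists, 4 are named after their values were seen. CYTL1, a small secreted cytokine-like protein, stood at 5590.2, 34775, 8135 and 29801 CPM in the intima and 482, 4599, 179.6 and 2183 CPM in the media (log2 difference 3.90, SE 0.48, q = 0.0251). LMO2, a partner of GATA factors in blood and endothelium, stood at 29.2, 42.9, 37.0 and 135 CPM in the intima and 0, 1.95, 1.65 and 5.18 CPM in the media (log2 difference 4.96, SE 0.63, q = 0.0251), and CA2, a carbonic anhydrase also abundant in red cells, at 62.0, 78.9, 25.5 and 143 CPM in the intima and 3.64, 1.14, 2.48 and 1.94 CPM in the media (log2 difference 4.89, SE 0.62, q = 0.0251). THSD1, a thrombospondin-domain membrane protein of endothelium, stood at 12.8, 84.0, 15.1 and 103 CPM in the intima and 0.559, 9.09, 0.0919 and 1.46 CPM in the media (log2 difference 5.06, SE 0.74, q = 0.0358). These 4 genes did not overlap between the layers.

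A further set of genes was at or under 3 counts in every library of 1 layer and above 3 counts in every library of the other. There were 62 such genes for the media and 2 for the intima, and none of them was called. They passed the filter on low values only through the layer where they were high, so these numbers are a description. The layers also differed in depth, and 3 counts equalled 0.276 to 0.839 CPM in a medial library and 0.170 to 0.439 CPM in an intimal one. For 22 of the 62 all medial counts were 0, and folds for these were taken against 3 counts per library as the mean over the 4 pairs on the log2 scale. The C-type lectin CLEC1A, found on endothelium, was at least 16.4-fold higher in the intima, with 8.85, 13.8, 2.77 and 11.8 CPM in the intima and 0 in the 4 medial libraries. PROM1, the stem cell antigen CD133, was at least 13.2-fold higher, and the ligand DHH, a hedgehog, at least 10.4-fold higher. The sphingosine 1-phosphate receptor S1PR1 was at least 5.82-fold higher, with 4.56, 2.05, 2.04 and 3.31 CPM in the intima and 0 in the 4 medial libraries, and the prostaglandin E synthase PTGES at least 4.25-fold higher. For S1PR1 the lowest bound of a single pair was 4.20-fold, and for PTGES 2.67-fold. In the other direction the serine protease MASP1 of the complement lectin pathway was 0 in all 4 intimal libraries and at least 23.3-fold higher in the media, where BA rabbit 4 held 39.1 CPM and the other 3 libraries 2.52 to 3.22 CPM. CLEC1A, PROM1, DHH, PTGES and MASP1 were named after their values were seen.

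Whether the difference between the layers depended on location was tested as an interaction of layer and location within the sham rabbits. Of 9161 genes edgeR called 0.0% (367 at an unadjusted p below 0.05, 4 of them among the 50, and DESeq2 called 38), with a smallest q-value of 1. The 2 genes with the smallest p were RSPO3, a Wnt agonist, and GCH1. RSPO3 stood at 137, 2.19, 0 and 0 CPM in the intima and 1.96, 0, 10.3 and 0 CPM in the media. Most of its counts were in the intima of BT rabbit 3 and the media of BA rabbit 3, and 4 of its 8 values were 0, so its fitted interaction is no measure of size either. GCH1 had 0 CPM in both medial BA libraries, so its fitted interaction is no measure of size.

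Whether the difference was particular to normal flow was tested with the 4 pairs of the ligated rabbits. In those rabbits alone, 81 (0.924%) of 8767 genes were higher and 53 (0.605%) lower in the intima. The 50 genes were chosen by their sham values, and rabbits 5 and 6 took no part in that choice. All 50 genes called in the sham rabbits were tested there, 48 had the same sign, and 11 were called again, while 66.6% of the 8387 genes tested in both had the same sign. The 11 were CLDN5, CTSZ, GCHFR, LTC4S, VCAM1, ITPRID2, PNP, ITGB4, FAM120B, PTPRG and LDB2, all higher in the intima. CLDN5 had a log2 difference of 3.74 (SE 0.51, q = 0.0251) in the ligated rabbits and CTSZ of 2.73 (SE 0.35, q = 0.0251). The exceptions in sign were TMEM45A, at −0.10, and the metabolic kinase PDK4, at −0.59, which were 2.13 and 1.80 in the sham rabbits. None of the 4 genes lower in the intima was called in the ligated rabbits. PDGFRB was −1.03 there (SE 0.31, q = 0.144), CTHRC1 −1.21 (SE 0.50, q = 0.280), ALDH1A1 −0.60 (SE 0.42, q = 0.535) and RNF144A −3.28 (SE 1.11, q = 0.188).

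The interaction of layer and flow over all 16 libraries called 0.0% of 9544 genes by edgeR (364 at an unadjusted p below 0.05, 11 of them among the 50, and DESeq2 called 51), with a smallest q-value of 0.612. The 2 genes with the smallest p were RABGAP1, a regulator of Rab GTPases, whose layer difference was higher in the ligated rabbits by 2.43 on the log2 scale (SE 0.40, q = 0.612), and the granulin precursor GRN, higher by 1.89 (SE 0.40, q = 0.831). In the sham rabbits RABGAP1 stood at 84.7, 54.4, 101 and 35.1 CPM in the intima and 103, 101, 152 and 51.4 CPM in the media, lower in the intima in 4 of 4 pairs. For CLDN5 the difference between ligated and sham rabbits was −1.37 (SE 0.64, q = 1), for S100A9 −2.91 (SE 1.09, q = 1) and for PTGS1 −2.29 (SE 0.91, q = 1). With the other sign, and named after their values were seen, PTPRG was at 0.37 (SE 0.50), FAM120B at 0.18 (SE 0.50) and LDB2 at 0.16 (SE 0.57). The sham values that chose the 50 genes also enter this interaction. Nothing is therefore read from a smaller layer difference of those genes in the ligated rabbits, or from their number at an unadjusted p below 0.05. A change of the layer difference with flow was not shown for any gene by edgeR.

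**Figure D5:**
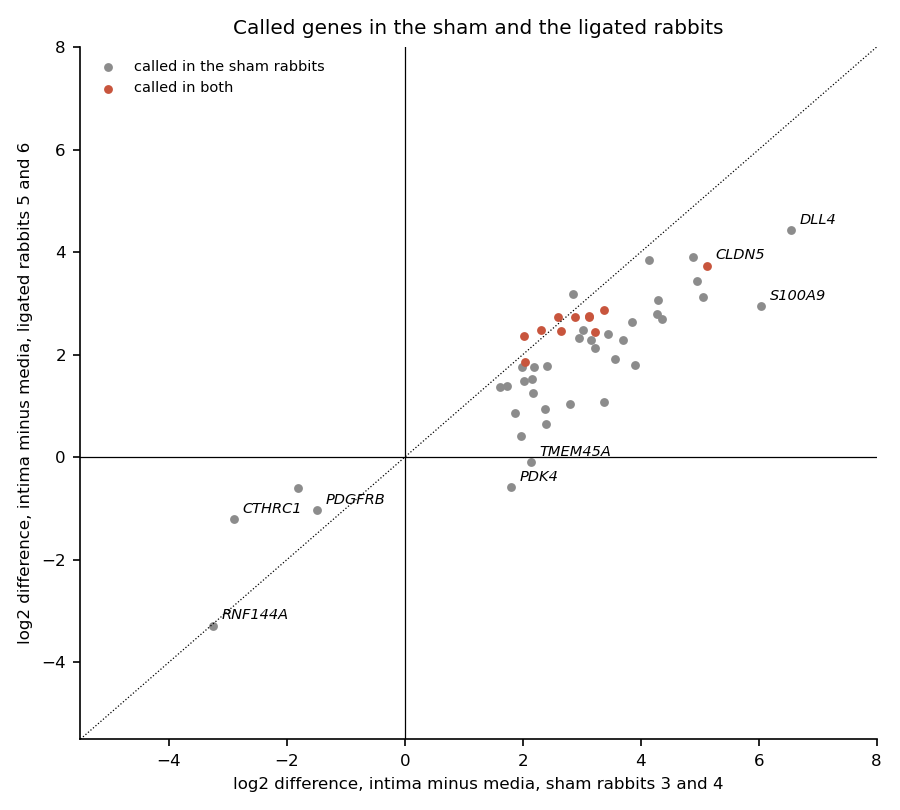
Log2 difference (intima minus media) of the 50 genes called in the sham rabbits, with the sham estimate on the horizontal axis and the estimate in the ligated rabbits on the vertical axis, genes called in both in red and the dotted line marking equal values. Of the 50 points 48 lie in the quadrants of equal sign and TMEM45A and PDK4 lie below 0 on the vertical axis only.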

How the data were processed

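RNA of each layer was amplified from laser-dissected tissue with SMART-Seq v4, a kit that does not mark the strand, so reads of a gene and of an antisense partner cannot be told apart. The study's counting was set to the reverse strand, so reads of such libraries that lie on the other strand would not be counted, and the depths given are those of the counted reads. The authors sequenced single reads, placed them on the oryCun2 (OryCun2.0) genome by STAR, discarded reads that mapped to several places, assigned the rest to exons of the Ensembl annotation by featureCounts 1.6.2, and deposited raw counts per gene symbol, for 13788 symbols. All 16 columns were matched to samples by the labels. The entry without a symbol (13.8% to 18.7% of the counts of a sham library) was left out, and 22 symbols that had been turned into dates were kept as they stood. Of the symbols, 12688 were in the RefSeq table used here, which is of another assembly, so no coordinates or sequences are given. Listed genes that were not in the table, among them TAGLN, CNN1, KLF2, KLF4 and ELN, were not analysed here.

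EdgeR 4.0.16 (R 4.3.3) was fitted to these counts after TMM scaling over the 8 libraries, for genes of mean CPM above 1 in a layer, by pair and layer as terms and the quasi-likelihood F test in its older form (limma 3.58.1, residual degrees of freedom 3, common coefficient of variation 0.721), with Benjamini-Hochberg adjustment at 0.05. Layer by location was tested in the same 8 libraries and layer by flow in all 16. The pairing comes from the labels, which give both layers of a pair the same rabbit and location, and the deviations of paired libraries from their layer means correlated at −0.116 to 0.152, against −0.160 to 0.139 for other pairs of libraries. The block therefore rests on the labels. The spread between libraries of a layer was 46.1 to 481 times counting error (chi-square per degree of freedom), so none was a duplicate. With 4 pairs an exact sign-flip test of a single gene cannot go below p = 0.125. P-values measure the spread between 4 pairs of 2 animals. The scripts were tested on simulated data. For the layer contrast they found 0% of genes changed by a log2 of 1, 46% at 2, 70% at 3 and 72% at 4, with 9 false calls among 103. A list without calls is therefore not shown to be unchanged. Layer by location gave 25 false calls among 74, and layer by flow 1 among 71. The simulated counts were drawn independently for each library, so a layer difference shared by the 2 pairs of a rabbit was not simulated. These rates are therefore not shown to hold for 4 pairs from 2 animals.

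The members and lists were chosen with earlier results of these data known. Genes named were on each side the 10 of smallest q-value that had 1 sign in 4 pairs, 6 layer markers, up to 4 members of each list in each direction, any member of the marker and the ligand and receptor lists, and the 2 with the smallest p of each interaction. Others are named where the text says so, or as the full set called in the ligated rabbits, with their values already known. PLAT and ITGA6 were also named outside these rules, with their values known. Alternatives were RLE scaling, library size alone, all genes with a count, filterByExpr, no block, rabbit and location as separate terms, counts summed per rabbit, DESeq2 1.42.0, the version 4 quasi-likelihood form, and leaving out each pair and each rabbit. Tables and figures were made in Python 3.11.15 with numpy 2.4.6, pandas 2.3.3 and matplotlib 3.10.9.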

Additional observations from a re-analysis of the deposited data

Results flagged for a closer look

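The log2 ratio of intima to media for RNF144A was −1.68 in BA rabbit 3, apart from the other 3 pairs, which lay between −3.66 and −3.54. The intima of that pair held 13.8 CPM, against 2.79 to 4.68 CPM in the other intimal libraries. The ratios of the 20 named genes were examined in this way, and chance sets apart about 1 in 20. All 4 pairs were on the same side of 0.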

How the results depend on the processing

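The calls rest on 2 animals and on the block. Without the replicate block 3 genes were higher and 0 lower in the intima (1191 at an unadjusted p below 0.05), and with the counts of both locations summed per rabbit and the rabbit as the block 46 were higher and 7 lower, with 29 of the 50 still called. DESeq2 called 509 and 325, all genes with a count gave 100 and 17, library size alone gave 70 higher, and the version 4 quasi-likelihood form 164 and 37. RLE scaling, filterByExpr and separate terms for rabbit and location gave 44 to 55 higher and 3 to 6 lower. Leaving out a pair or a rabbit gave 0 to 197 higher and 0 to 125 lower. The 50 genes kept their direction in each of these fits, which their shared sign in 4 of 4 pairs made nearly certain beforehand. Of the 50, 28 were called in all of the fits that used 8 libraries and a block. For layer by location DESeq2 called 38 genes, and for layer by flow 51, while every edgeR alternative called 0. Layer by location could not be fitted without a rabbit, since no residual degree of freedom is left. The cause of these differences was not tested. Depth limited genes near 0 counts, where the fitted size depends on the prior count.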
